A study of Saccharomyces cerevisiae with 6 samples.

Results

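The genes described here are the autophagy genes and the vacuolar proteases of budding yeast (Saccharomyces cerevisiae). The members were chosen by name: every gene whose symbol is ATG followed by a number, plus PEP4, PRB1, PRC1, APE1, APE3, CPS1, LAP3 and PBI2, each represented by its brightest probe set. The rule found 42 genes, 34 ATG genes and 8 others, among 5449 S. cerevisiae genes measured, and each of the 42 had a single probe set. Total RNA came from 6 cultures of wild-type yeast in mid-log phase, each hybridised to an Affymetrix oligonucleotide array of its own. In the 3 control cultures the cells grew for 3 h with the solvent DMSO at 0.1%, and in the 3 treated cultures for 3 h with OGT2468 at 0.1 µM. No DMSO content is given for the treated cultures. OGT2468 is a code name. The labels give no strain background, mating type, ploidy or medium, and the design text calls them biological samples without saying how separate the cultures were, so p-values measure the spread between these samples.

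Autophagy is the route by which a yeast cell wraps cytoplasm or chosen cargo in a double membrane and delivers it to the vacuole, the digestive compartment of the cell. The Atg1 kinase starts the process, a lipid kinase and Atg9-bearing membranes build the wrapping, and the ubiquitin-like protein Atg8 is attached to lipid so that the membrane can grow and hold cargo. Inside the vacuole the aspartic protease Pep4 and the serine protease Prb1 activate themselves and the other hydrolases. In growing cells much of the same machinery runs the cytoplasm-to-vacuole targeting (Cvt) pathway, which delivers the enzymes Ape1 and Ams1.

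The values are deposited linear intensities, brought to a common distribution over the 6 arrays by quantile normalization. A level below is log2(normalized intensity + 16), and a change is the level in OGT2468 minus that in DMSO, with its standard error (SE) from limma and 3 arrays per group. A gene was called when its limma p, adjusted by the Benjamini-Hochberg method over all 8968 tested probe sets, was under 0.05. On the DMSO arrays the S. cerevisiae probe sets had a median deposited intensity of 786 to 1150, on the OGT2468 arrays of 691 to 842, and no array repeated another. Without scaling between arrays the median change of all named genes was -0.27, against -0.02 after quantile normalization, so changes are relative to the other genes on the array. A lower amount of a transcript per cell and fewer cells carrying it cannot be told apart in such bulk RNA.

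Of the 42 members 41 were above background on all 6 arrays. The exception was ATG16, a partner of the Atg12-Atg5 conjugate, whose deposited intensities of 8.70 to 19.1 were under the background of 21.8 to 25.9 on every array. Background was set from probe sets of another species on the same arrays. Among these, 18 carry the same names in lower case. Their intensities ran from 0.4 to 32.5 with a median of 6.5, and 2 of them exceeded background on an array.

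In OGT2468 the transcript of PRB1 rose 1.74-fold and that of its inhibitor PBI2 rose 1.28-fold, while the transcript of the aminopeptidase gene APE1 fell, to a level 1.67-fold lower. With the processing described above these 3 were the only members called, and none of the 34 ATG genes was. Of 16 alternative settings, 11 called PRB1, 11 called APE1 and 4 called PBI2. No member was called with the replicate number as a block. Of the other settings that kept all 6 arrays, 4 called between 1 and 6 ATG genes, most of them when probe sets at background were not tested (ATG5, ATG15, ATG17, ATG19, ATG22 and ATG38). Of the 42 members 2 were higher (1.83% of all tested probe sets were called higher) and 1 was lower (0.758% were called lower, and 2.59% in either direction). At an unadjusted p under 0.05 there were 7 of the 34 ATG genes, 6 higher and 1 lower. Over all members that count was 10, or 23.8%, close to the 20.8% of all named S. cerevisiae probe sets.

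**Figure D1:**
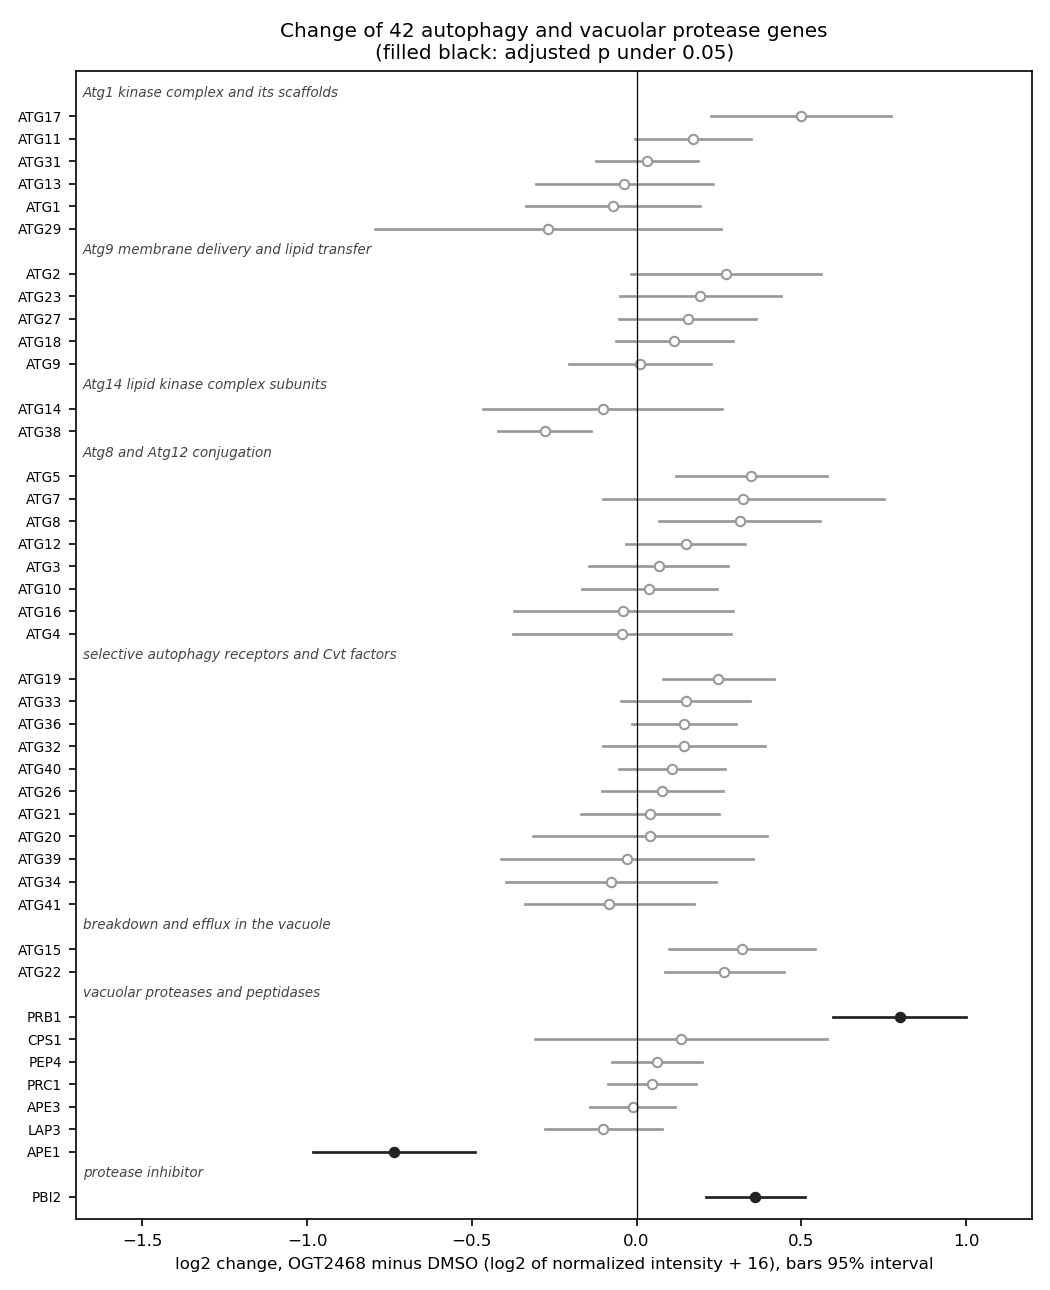
Change of each of the 42 genes in OGT2468 against DMSO (log2 units, horizontal axis), grouped by role, with the 95% interval from limma as a bar and called genes in filled black. PRB1 (0.80) and PBI2 (0.36) lie to the right of 0 and APE1 (-0.74) to the left, and the ATG genes lie between -0.28 and 0.50. ATG16 is drawn although it was at background on every array.

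PRB1 (YEL060C) encodes proteinase B, a subtilisin-type serine protease that matures several vacuolar enzymes. Its level was 10.13, 10.26 and 10.15 in the DMSO cultures and 10.91, 10.91 and 11.11 in the OGT2468 cultures. All treated arrays lay above all control arrays, by more than the spread within either group. The means were 10.18 ± 0.07 and 10.98 ± 0.11 (SD, n = 3), a change of 0.80 ± 0.08 (SE; limma adjusted p = 0.00892) with a 95% interval of 0.60 to 1.00. The deposited intensities, before quantile normalization, were 1157, 1134 and 1490 in DMSO and 1952, 1666 and 1760 in OGT2468, again without overlap. With no scaling between arrays the change was 0.51 and was not called (limma adjusted p = 0.298), and it was not called with scaling on the hybridization controls (0.61, adjusted p = 0.0622). Leaving out DMSO replicate 1 (0.77, limma adjusted p = 0.05002) or DMSO replicate 3 (0.79, 0.0520) ended the call as well, with little change in size. PRB1 was also not called with the replicate number as a block (limma adjusted p = 0.0835). Relative to the median of all named genes the change lay between 0.75 and 0.86 under all 16 alternatives.

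PBI2 (YNL015W) encodes a small cytosolic inhibitor of Prb1 that, bound to thioredoxin, also takes part in vacuole fusion. Its level was 10.97, 11.01 and 11.10 in DMSO and 11.41, 11.36 and 11.40 in OGT2468. The treated arrays were tightly grouped above the controls. The change was 0.36 ± 0.06 (SE; limma adjusted p = 0.0458), close to the threshold, with a 95% interval of 0.21 to 0.51. It did not survive leaving out any 1 of the 6 arrays, with changes of 0.33 to 0.40 and adjusted p between 0.0919 and 0.158. With no scaling the change was 0.07 (adjusted p = 0.848) and with control scaling 0.17 (adjusted p = 0.494). Scaling on the upper quartile or the median also ended the call, at changes of 0.35 and 0.36, as did a pseudocount of 1 (0.36, adjusted p = 0.0675). PBI2 was also not called with the replicate number as a block (limma adjusted p = 0.143). Its deposited intensities overlapped between the groups, at 2067, 2004 and 2808 in DMSO and 2793, 2239 and 2166 in OGT2468. Relative to the median of all named genes the change of PBI2 was 0.35 to 0.42 under all alternatives.

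APE1 (YKL103C) encodes aminopeptidase I, made in the cytosol as a precursor and carried to the vacuole in the Cvt pathway. Its level was 9.82, 10.07 and 9.998 in DMSO and 9.17, 9.37 and 9.14 in OGT2468. All treated arrays lay below all control arrays. The means were 9.96 ± 0.13 and 9.23 ± 0.13 (SD, n = 3), a change of -0.74 ± 0.10 (SE; limma adjusted p = 0.0222) with a 95% interval of -0.98 to -0.49. The deposited intensities were 931, 982 and 1353 in DMSO and 549, 579 and 439 in OGT2468, also without overlap. The fall was called under every scaling tried, and with no scaling it was -1.03 (adjusted p = 0.0218). It was not called without DMSO replicate 2 (-0.68, adjusted p = 0.0759) or DMSO replicate 3 (-0.72, 0.0919). Nor was it called without replicate 1 of OGT2468 (-0.71, 0.0820) or replicate 3 of OGT2468 (-0.69, 0.0903). It was not called with the replicate number as a block either (limma adjusted p = 0.0748). Relative to the median of all named genes it was -0.80 to -0.66 under all alternatives.

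The remaining 5 peptidase genes were not called and gave narrow intervals apart from CPS1. PEP4, encoding proteinase A, which starts the activation of the other vacuolar hydrolases, was at 12.48, 12.53 and 12.50 in DMSO and 12.60, 12.57 and 12.54 in OGT2468. Its groups did not overlap, yet the change was 0.06 with a 95% interval of -0.07 to 0.20 (limma adjusted p = 0.639). PRC1, encoding carboxypeptidase Y, was at 12.38, 12.32 and 12.32 in DMSO and 12.39, 12.39 and 12.38 in OGT2468. Its groups did not overlap either, and the interval of its change of 0.05, from -0.09 to 0.18, held 0. APE3, encoding aminopeptidase Y, was at 12.82, 12.81 and 12.83 in DMSO and 12.81, 12.82 and 12.79 in OGT2468, a change of -0.01 (-0.14 to 0.12). After quantile normalization no interval of these 3 genes went beyond 0.20 in size, well under the change of PRB1. With no scaling their changes were -0.18 (PEP4), -0.20 (PRC1) and -0.24 (APE3), none of them called.

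CPS1, encoding the vacuolar carboxypeptidase S, varied most among the proteases. Its level was 9.38, 9.83 and 9.89 in DMSO and 9.62, 9.79 and 10.08 in OGT2468. The groups overlapped, and the interval of its change of 0.13 ran from -0.31 to 0.58. LAP3, encoding a cytosolic cysteine aminopeptidase also called bleomycin hydrolase, was at 10.90, 10.97 and 10.85 in DMSO and 10.71, 10.84 and 10.87 in OGT2468. Its change was -0.10 (-0.28 to 0.08), with overlapping groups.

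**Figure D2:**
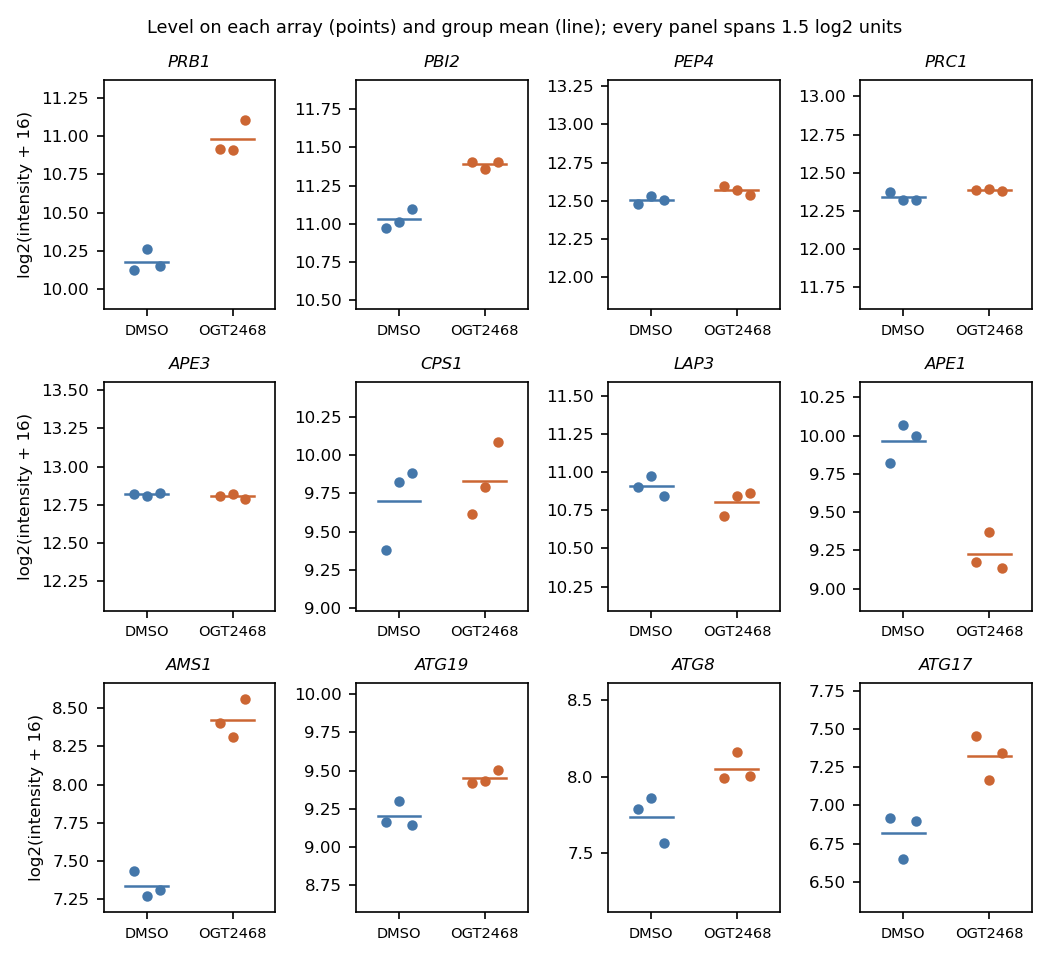
Level on each array, as log2(normalized intensity + 16), for 12 genes in the DMSO and OGT2468 cultures, with 1 point per array, the group mean as a line and every panel spanning 1.5 log2 units. PRB1, PBI2 and AMS1 are higher and APE1 lower on all treated arrays, whereas APE3, CPS1 and LAP3 overlap between the groups. PEP4, PRC1, ATG8, ATG17 and ATG19 are also higher on all treated arrays but were not called. Of all 34 ATG genes, 10 were higher on all treated arrays, 1 was lower and 23 overlapped. Of all named S. cerevisiae probe sets, 15.4% were higher on all treated arrays.

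The genes of the Cvt cargo enzymes Ape1 and Ams1 changed in opposite directions. AMS1, the vacuolar alpha-mannosidase gene, is no ATG gene or protease, and is given here because its product is delivered with Ape1. Its level was 7.43, 7.27 and 7.31 in DMSO and 8.40, 8.31 and 8.56 in OGT2468. It rose 2.12-fold, with a change of 1.09 ± 0.09 (SE; limma adjusted p = 0.00385), in 3 of 3 treated cultures above all controls. The call held without any 1 array (changes of 1.02 to 1.14, adjusted p of 0.0147 to 0.0291) and was lost with no scaling (0.83, adjusted p = 0.0671). It was also lost with the replicate number as a block (limma adjusted p = 0.0527). The 95% intervals of AMS1 (0.87 to 1.302) and APE1 lay on opposite sides of 0. The receptor that links both cargoes to Atg8 is encoded by ATG19, at 9.16, 9.30 and 9.14 in DMSO and 9.42, 9.43 and 9.50 in OGT2468. All treated arrays of ATG19 lay above the controls, but its change of 0.25 ± 0.07 was not called (limma adjusted p = 0.1502), and with no scaling it was -0.03. ATG34, which neighbours ATG19 on the chromosome and encodes a receptor for Ams1 in starved cells, was at 7.40, 7.19 and 6.94 in DMSO and 7.09, 7.01 and 7.21 in OGT2468. Its groups overlapped and its change was -0.08 (-0.40 to 0.24).

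Among the 6 genes of the Atg1 kinase complex and its scaffolds, changes ran from -0.27 to 0.50 and none was called. ATG1, the kinase gene, was at 7.35, 7.34 and 7.32 in DMSO and 7.11, 7.49 and 7.19 in OGT2468. The controls were nearly equal and the treated arrays fell on both sides of them, so the change of -0.07 had an interval of -0.34 to 0.19. ATG17, encoding a scaffold that assembles the complex in starved cells, had the largest change of any ATG gene after quantile normalization. With no scaling it was 0.24 and ATG38 was larger in size (-0.54), as it was with control scaling, and without replicate 1 of OGT2468 ATG7 was larger (0.51). ATG17 was at 6.92, 6.65 and 6.90 in DMSO and 7.45, 7.17 and 7.34 in OGT2468, without overlap. The change was 0.50 ± 0.11 (SE; limma adjusted p = 0.0969), called in 3 of 16 alternatives and in none that left out an array. ATG29, whose product is in a complex with Atg17, was at 6.60, 6.41 and 5.97 in DMSO and 6.32, 6.11 and 5.75 in OGT2468. It overlapped between the groups and had the widest interval of the members, -0.79 to 0.26 around -0.27. ATG11, encoding the scaffold for selective autophagy, was at 9.58, 9.69 and 9.52 in DMSO and 9.82, 9.78 and 9.70 in OGT2468. Its treated arrays were above the controls by a small margin, with a change of 0.17 (-0.0049 to 0.35; limma adjusted p = 0.316). ATG13 (-0.04) and ATG31 (0.03) overlapped between the groups.

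The 5 genes of membrane delivery and lipid transfer had changes of 0.01 to 0.27 and none was called. ATG9, encoding the transmembrane protein of the vesicles that seed the autophagosome, was at 7.36, 7.63 and 7.49 in DMSO and 7.45, 7.56 and 7.51 in OGT2468. The treated arrays lay inside the range of the controls, with a change of 0.01 (-0.20 to 0.22). ATG2, which encodes a protein that moves lipid into the growing membrane, was at 7.97, 8.38 and 8.12 in DMSO and 8.38, 8.39 and 8.52 in OGT2468. One control array reached the treated range, and the change was 0.27 (-0.02 to 0.56; limma adjusted p = 0.329). The other 3 genes of this group, ATG18, ATG23 and ATG27, had changes of 0.11, 0.19 and 0.15.

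Both subunit genes of the Atg14-containing lipid kinase complex that were measured under an ATG name had negative changes. ATG38 was at 7.63, 7.66 and 7.73 in DMSO and 7.40, 7.37 and 7.41 in OGT2468. All treated arrays were below all controls, and the change was -0.28 ± 0.06 (SE; limma adjusted p = 0.0802), called in 3 of 16 alternatives and in none that left out an array. ATG14, which directs the kinase to autophagy, was at 5.98, 6.52 and 6.28 in DMSO and 6.26, 6.17 and 6.04 in OGT2468, with overlap and a change of -0.10 (-0.47 to 0.26). The shared subunits of this kinase, VPS34, VPS15 and VPS30, had changes of -0.12, 0.04 and 0.05 and were not called.

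Of the 8 genes of Atg8 and Atg12 conjugation none was called, and in the 7 above background changes ran from -0.04 to 0.35. ATG8, whose product coats the autophagosome membrane and is the usual marker of autophagy induction, was at 7.79, 7.86 and 7.57 in DMSO and 7.99, 8.16 and 8.002 in OGT2468. All treated arrays were above the controls. The change was 0.31 ± 0.10 (SE; limma adjusted p = 0.196) and the 95% interval, 0.07 to 0.56, stayed below a change of 1, that is, a doubling. With no scaling the change of ATG8 was 0.05 (limma adjusted p = 0.888) and with control scaling 0.14. Its deposited intensities overlapped between the groups. ATG7, encoding the activating enzyme of both conjugation systems, was at 7.60, 7.68 and 7.62 in DMSO and 7.58, 8.04 and 8.26 in OGT2468. One treated array lay just below the controls and the other two above them, and the change was 0.32 (-0.10 to 0.75; limma adjusted p = 0.425). ATG5, encoding the protein to which Atg12 is joined, was at 9.43, 9.41 and 9.46 in DMSO and 9.97, 9.68 and 9.69 in OGT2468. The controls agreed closely and all treated arrays were higher, with a change of 0.35 ± 0.09 (SE; limma adjusted p = 0.141). It was called in 3 of 16 alternatives, in none that left out an array, and its change was 0.08 with no scaling. ATG3, ATG4, ATG10 and ATG12 had changes between -0.04 and 0.15, and ATG16, at background, is given no change.

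Of the 11 genes in the group of selective autophagy receptors, Cvt factors and other ATG genes none was called, and every 95% interval lay within 0.5 of 0. Besides ATG19 and ATG34, the members were the mitophagy genes ATG32 (0.14) and ATG33 (0.15), the peroxisome receptor gene ATG36 (0.14), and the endoplasmic reticulum receptor genes ATG39 (-0.03) and ATG40 (0.11). ATG41, the gene of this group with the lowest change, was at 8.36, 8.28 and 8.07 in DMSO and 8.13, 8.04 and 8.28 in OGT2468, a change of -0.08 with overlapping groups. ATG20 (0.04), ATG21 (0.04) and ATG26 (0.08) overlapped as well.

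The 2 measured ATG genes of breakdown and efflux in the vacuole were not called. After quantile normalization both were higher on every treated array, as were 15.4% of all named S. cerevisiae probe sets. The deposited intensities of both genes overlapped between the groups. ATG15, encoding the lipase that opens delivered vesicles, was at 7.92, 8.09 and 7.98 in DMSO and 8.21, 8.29 and 8.46 in OGT2468. Its change was 0.32 ± 0.09 (SE; limma adjusted p = 0.157). ATG22, encoding a transporter that returns amino acids to the cytosol, was at 8.39, 8.53 and 8.53 in DMSO and 8.81, 8.67 and 8.77 in OGT2468. Its change was 0.27 ± 0.07 (SE; limma adjusted p = 0.149). Both were called when only probe sets above background were tested (limma adjusted p = 0.0487 for ATG15 and 0.0453 for ATG22), and with no scaling their changes were 0.06 and 0.01.

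Taken as a list, the members' median change was 0.07, and 0.09 for the 34 ATG genes, beside -0.02 for all named genes. Of the ATG genes 24 of 34 (70.6%) had a positive change, as did 45.2% of all named genes, but the median of the ATG genes was -0.15 with no scaling and -0.05 with control scaling, and 7 and 10 of them were then positive. Between 24 and 28 of them lay above the median of all named genes under every setting, out of 33 where probe sets at background were left out and 34 otherwise. In 14 of the 42 members (33.3%) all treated arrays were above all controls, against 12% of tested probe sets and 15.4% of named S. cerevisiae probe sets. In 2 members all treated arrays were below, against 12.1% of tested probe sets. With no scaling these counts were 1 above and 6 below, against 1.62% and 25.4% of named probe sets. The members share arrays and are not independent, so these shares are a description of the list.

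**Figure D3:**
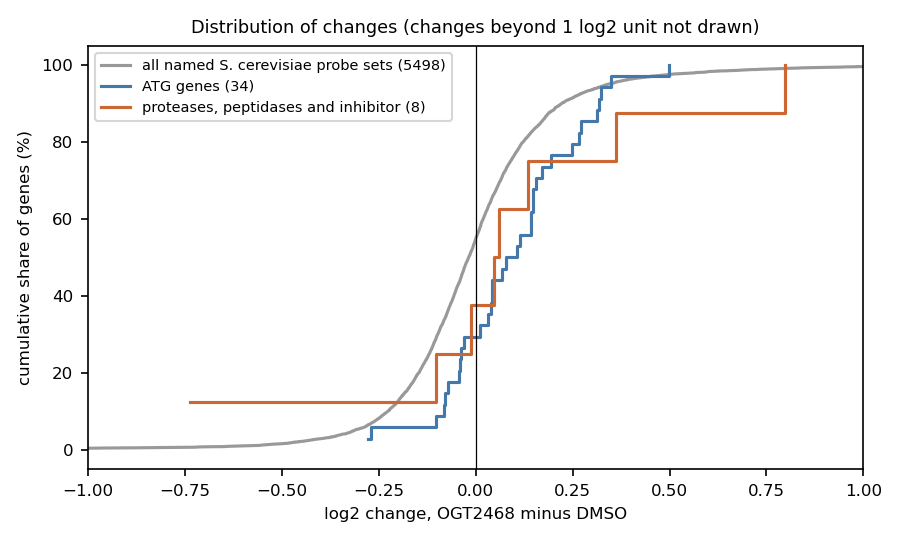
Cumulative share of genes (%) against the log2 change in OGT2468, for the 34 ATG genes, the 8 protease, peptidase and inhibitor genes and 5498 named S. cerevisiae probe sets. The ATG curve lies to the right of the curve of all probe sets around 0 (medians 0.09 and -0.02) and has no gene beyond 0.50, whereas PRB1 and APE1 form the ends of the protease curve.

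After quantile normalization the precision of the fit bounded most changes. The 95% interval lay within a change of 1 in either direction for 40 of the 41 members above background, all 33 such ATG genes among them, and within 0.5 for 30. The exception to the wider bound was PRB1, whose upper end was 1.00. The members' median SE was 0.09.

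Genes that act beside the members were described from 7 lists. Of 17 autophagy and vacuole fusion genes without an ATG name none was called, with changes from -0.33 to 0.11. VPS41, a subunit gene of the tethering complex at the vacuole, had the lowest value (-0.33, limma adjusted p = 0.164), followed in p by NVJ1 (-0.18) and VAM3 (-0.11). Of 8 other vacuolar hydrolase, sorting and inhibitor genes AMS1 alone rose. PHO8, the vacuolar alkaline phosphatase gene, had a change of 0.21, DAP2, a vacuolar dipeptidyl aminopeptidase gene, 0.18, and PAI3, the inhibitor of Pep4, -0.39 while above background on 3 of 6 arrays. Of 15 genes of the V-ATPase, the pump that acidifies the vacuole, none was called. STV1, the Golgi form of its membrane subunit, had the lowest p (0.30, limma adjusted p = 0.122), then VMA7 (-0.20) and VMA13 (-0.06).

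Regulatory genes showed few differences. Of 14 genes of TORC1, the kinase complex that restrains autophagy in fed cells, and of signalling linked to it none was called. Their changes ran from -0.16 to 0.19. TAP42 (-0.16), GTR2 (-0.16) and SNF1 (-0.13) were lower on all treated arrays without passing. These were 3 of the 14 genes, and 16.3% of all named S. cerevisiae probe sets were lower on all treated arrays. Of 11 transcription regulators of autophagy genes none was called. MSN2, encoding a general stress activator, had a change of 0.27 (limma adjusted p = 0.153) and of -0.02 with no scaling, and GLN3 (0.10) and UME6, a repressor gene of ATG8 (-0.12), overlapped between groups. Of 12 nitrogen limitation genes none was called. UGA4 (0.25) and MEP1 (0.24) had low p among them, and DAL80 was at background on all 6 arrays, so that its change is not given.

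Of 12 genes of glucose depletion and stationary phase, SPG5 rose (0.56, limma adjusted p = 0.0467), with all treated arrays (11.34 to 11.64) above all controls (10.82 to 10.96). Its call was lost with any 1 array left out, under each other scaling (0.27 with none) and with a pseudocount of 1. CTT1, the cytosolic catalase gene (0.45), HSP26 (-0.27) and ADH2 (0.30) were not called. The summed normalized intensity of this list was 3190 to 3488 on the DMSO arrays and 4017 to 4581 on the OGT2468 arrays. Without SPG5 the other 11 genes summed to 1368 to 1505 in DMSO and 1393 to 1434 in OGT2468, so the higher sum was that of SPG5. The median change of the 12 genes was 0.04, and 1 of them was at background on all arrays. The nitrogen limitation list, a sum carried by its brightest genes, was at 4246 to 4351 in DMSO and 4240 to 4507 in OGT2468, with a median change of 0.03.

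Mating type markers also moved. Of 6 a-type markers STE2 (-1.09), MFA2 (-1.06) and STE6 (-0.61) fell, and MFA1, AGA2 and BAR1, each at background on some arrays, were not called. AGA2 was above background on 2 DMSO arrays and 0 OGT2468 arrays, BAR1 on 2 and 2, and MFA1 on 3 and 2. Of 4 alpha-type markers MF(ALPHA)2 fell (-0.35), and SAG1 (-0.49), STE3 (-0.29) and MF(ALPHA)1 (-0.08) were not called. STE2 alone was called among the a-type when DMSO replicate 3, or replicate 1 or 3 of OGT2468, was left out. MF(ALPHA)2 was not called with any 1 array left out, SAG1 was called without replicate 2 of OGT2468 (-0.57), and 3 of the 4 alpha-type markers were called lower in 4 settings with all arrays. The summed intensity was 744 to 868 in DMSO and 398 to 413 in OGT2468 for the a-type, and 36653 to 37860 and 29748 to 32161 for the alpha-type. Whether these bear on the members was not tested.

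**Figure D4:**
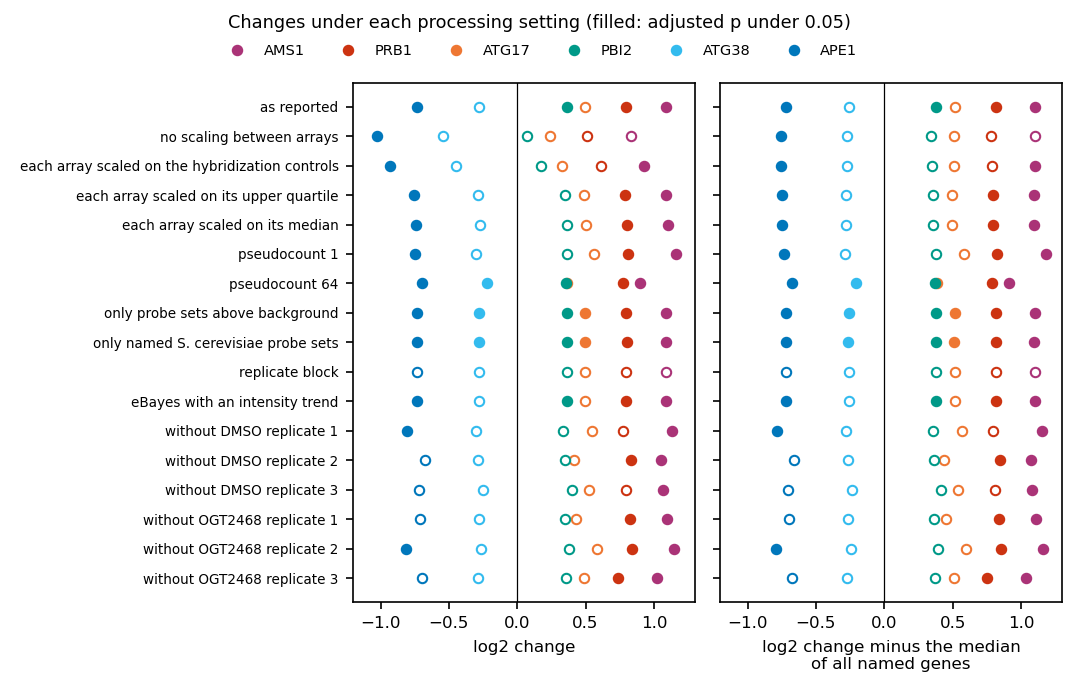
Log2 change of AMS1, PRB1, ATG17, PBI2, ATG38 and APE1 (horizontal axis) as reported and under 16 other processing settings (rows), with called changes filled, before (left) and after (right) subtracting the median change of all named genes. No gene changes sign in any setting, and after subtraction PRB1 stays between 0.75 and 0.86 and APE1 between -0.80 and -0.66.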

How the data were processed

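The deposited table gave 1 linear intensity per probe set and array for 6 Affymetrix arrays. GCRMA is named, without a version, in the submitters' processing notes. Background correction and scaling of the deposited intensities are not stated in the notes, and the medians differed between arrays. Of 10928 probe sets 5498 matched 1 gene of the R64 gene table, 1747 belonged to another species, 213 were controls and 3470 were unnamed. The named and unnamed ones were quantile normalized (limma 3.58.1, R 4.3.3), a pseudocount of 16 was added and log2 taken, a scale that understates changes of dim genes. OGT2468 was compared with DMSO by lmFit and eBayes. Background on each array was set at percentile 98 of the probe sets of the other species. The fit was tested on simulated data. The labels do not say whether a replicate number pairs the cultures, and the fit reported did not pair them. Precision is limited by the 3 arrays per group. Genes given with a value on every array were the 8 genes without an ATG name, 10 set ATG genes, and the 3 highest and 3 lowest of the remaining members. List genes named were all called ones and up to 3 with the lowest p. The members, lists and settings were chosen with earlier results of these data known. No sequence table was used here.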

Additional observations from a re-analysis of the deposited data

How the results depend on the processing

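Across all tested probe sets 164 were called higher and 68 lower, and among the members 2 and 1. With no scaling between arrays 22 were higher and 44 lower (33.3% of calls higher, against 70.7%), with 0 members higher and a median member change of -0.16. Using the hybridization controls to scale gave 46 higher (45.5% of calls), with 0 members higher and a median of -0.0657. APE1 was called under both. Scaling on the upper quartile or the median left 1 member higher, PRB1, with medians of 0.10 and 0.11, and a pseudocount of 1 also left 1. A pseudocount of 64 gave 292 higher and 187 lower, and 2 members lower. Testing probe sets above background gave 373 and 239, with 7 members higher and 2 lower. Testing named probe sets alone gave 326 and 203, with 4 members higher and 2 lower. An intensity trend in eBayes gave 335 and 221. Without any 1 array 61 to 91 were higher and 28 to 40 lower, with 0 to 1 members higher, 0 to 1 lower and medians of 0.0694 to 0.0967. With the replicate block 27 were higher, 14 lower and 0 members were called in either direction. The same-numbered cultures deviated together with r of 0.19, 0.14 and 0.06, not all over 0.1, and each array correlated best with its own number, a hint from the data and not from the design. The causes of these shifts were not tested, beyond the fewer probe sets or arrays that some settings hold by construction. No member had more than 1 probe set, so averaging probe sets gave no value, and the platform's own symbols gave the same members. ATG19 and MSN2, called in at least 1 setting, had a negative change with no scaling (-0.03 and -0.02, neither called), and no gene was called in both directions. AMS1 lost its call with the block (adjusted p = 0.0527). Depth does not apply to arrays, and ATG16, at background on every array, has no usable change.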
